A study of Mus musculus with 2 samples.

Results

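Krt4, Krt7, Krt8, Krt13, Krt18, Krt19 and Krt23 are the keratins of mucosal and simple epithelia, and they were followed here through the cell classes of the mouse corneal epithelium in dry eye and control. They were chosen by name, and all 7 were among the 17891 genes counted. The data were single-cell transcriptomes of the dissociated corneal epithelium of 7 male C57BL/6J mice aged 10 weeks. The dry eye library pooled 6 right eyes, whose extraorbital and intraorbital lacrimal glands on that side had been excised, and the control library pooled the 7 left eyes, which had been left untreated. Corneas of both groups were taken on day 9. Both pools came from the same animals, so the side of the body went with the treatment. There was 1 library per group, so no test between groups was possible, no difference has a replicate check, and every statement compares these 2 libraries. Intervals in brackets are exact 95% intervals and cover counting error only.

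Keratins are the intermediate filament proteins of epithelial cells, and a filament is built from pairs of 1 type I and 1 type II protein. Krt8 and Krt18 are the textbook pair of simple epithelia such as liver and gut, Krt7 and Krt19 are known from ducts and glands, and Krt4 and Krt13 are the suprabasal pair of mucosae such as the oesophagus and the conjunctiva. The differentiated cornea is instead marked by Krt12, and the basal layers of stratified epithelia by Krt5. Of the 7 genes, Krt4, Krt7 and Krt8 encode type II keratins and Krt13, Krt18, Krt19 and Krt23 encode type I keratins.

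On the mouse build GRCm38 the type I genes lay on chromosome 11 and the type II genes on chromosome 15, except Krt18, which sits beside Krt8. Krt23 spanned chr11:99477974-99493137, Krt13 chr11:100117327-100121566 and Krt19 chr11:100140810-100148665, all on the minus strand. Krt7 spanned chr15:101411043-101430313 on the plus strand, where the antisense gene Gm671 overlaps it. Krt4 spanned chr15:101918535-101924735 and Krt8 chr15:101996698-102004482, both on the minus strand. Krt8 overlaps the long noncoding gene Gm36026 on the other strand and has an annotated processed pseudogene, Krt8-ps, at chr7:23357125-23358069. Krt18 spanned chr15:102028180-102032027 on the plus strand. The strand setting of the count and the handling of reads that match several places are not given in the sources used here, so the values of Krt7 and Krt8 carry that uncertainty.

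The dry eye library comprised 16420 cells with 207030777 unique molecular identifiers (UMIs), and the control library 17465 cells with 191493194 UMIs. A cell had a median of 9086.5 UMIs in dry eye and 8248 in control, and 74 barcode sequences occurred in both libraries. Without those cells the ratio of Krt13 over all cells, 1.498 with them, was 1.501. Levels are given as CPM, the gene's summed UMIs per 1000000 UMIs of the library or class. The cells carried 13 class names from the authors' own annotation, among them LSC, TAC, Basal, Wing, Squam, Conj and Immune classes, with 5 names marked by an asterisk whose meaning is not stated. Since cells were classed on their expression, levels by class are a description. Summed, the conjunctival markers other than these keratins did not set Conj cells apart, although Krt4 was among the 10 leading genes of Conj. The 6 counted summed to 16703 CPM in Conj cells and 49171 CPM in Squam cells of the dry eye library. In control they summed to 16644 and 58363 CPM. Psca and Lypd2 made up most of the sum in dry eye Conj cells, with 199908 and 199351 of 432510 UMIs. Lypd2 was also on the superficial layer list. Krt4, Krt7, Krt13 and Krt19 were on the conjunctival list but left out of the sum. The 7 goblet cell markers counted summed to 37.9 CPM in dry eye Conj cells and 30.7 CPM in control Conj cells, against 16.4 and 15.7 CPM over all cells. LSC cells had 33.5 CPM in dry eye and 49.2 CPM in control, so this sum did not single out Conj either. In dry eye Conj cells Agr2 and Fcgbp held 736 and 228 of the 982 UMIs. Muc5ac, Muc5b and Tff3 were not among the genes counted. Krt12 itself stood at 6734 CPM in dry eye Conj cells and 8167 CPM in control Conj cells. The 10 leading genes of Wing held Dsg1a, a gene of the superficial layer list, and no marker of another list, and those of Squam held Krt23 and no listed marker. The class names are therefore used only as the authors' labels.

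Summed over all cells, 4 of the 7 keratins stood at 1.46 to 1.64 times their control level in dry eye and Krt7 and Krt8 stood within a few percent of it. Krt4 had 86416 UMIs or 417 CPM in dry eye and 48673 UMIs or 254 CPM in control, a ratio of 1.64 (1.62 to 1.66). Krt13 had 3039 CPM in dry eye and 2029 CPM in control, a ratio of 1.498 (1.492 to 1.504) that lay just under the threshold of 1.5-fold used to call a difference. Krt19 had 533 CPM in dry eye and 363 CPM in control, a ratio of 1.47 (1.45 to 1.48). These 3 genes thus lay close together, on either side of the threshold. Krt18 was scarce, with 339 UMIs in dry eye and 215 in control, and its ratio of 1.46 (1.23 to 1.74) had the widest interval. Krt23 had 25.5 CPM in dry eye and 20.03 CPM in control, a ratio of 1.27 (1.22 to 1.33). Krt8 had 11.9 CPM in dry eye and 11.5 CPM in control, a ratio of 1.03 (0.973 to 1.09), and Krt7 had 90.6 CPM in dry eye and 92.3 CPM in control, a ratio of 0.982 (0.962 to 1.002). The intervals of both held 1.

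By the 1.5-fold rule 1 of the 7 members, Krt4, was higher in dry eye and 0 were lower. The same rule called 2.81% of 4775 genes higher and 1.4% lower. Those genes had a minimum of 20 CPM in either library and 100 UMIs in all. Krt8 and Krt18 were below that level, and the other 5 members passed it. The median log2 ratio of dry eye over control was 0.54 over the 7 members and -0.05 over those 4775 genes. The median over the members was the value of Krt18 itself. The counts and median of the members took in all 7 without the filter, so the 2 sides were not held to the same level. Krt4 was at 1.29 when Conj cells were left out. The count of members was sensitive to the scaling. It became 4 when the libraries were scaled by the median of gene ratios, which adds Krt13 at 1.58, Krt19 at 1.54 and Krt18 at 1.53. That scaling multiplied every ratio by 1.05 and called 172 of all genes higher and 48 lower, against 134 and 67 before. With the dry eye classes weighted to their shares in the control library, Krt13 had a ratio of 1.504, Krt4 was at 1.43, Krt19 at 1.23 and Krt23 at 1.12.

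**Figure D1:**
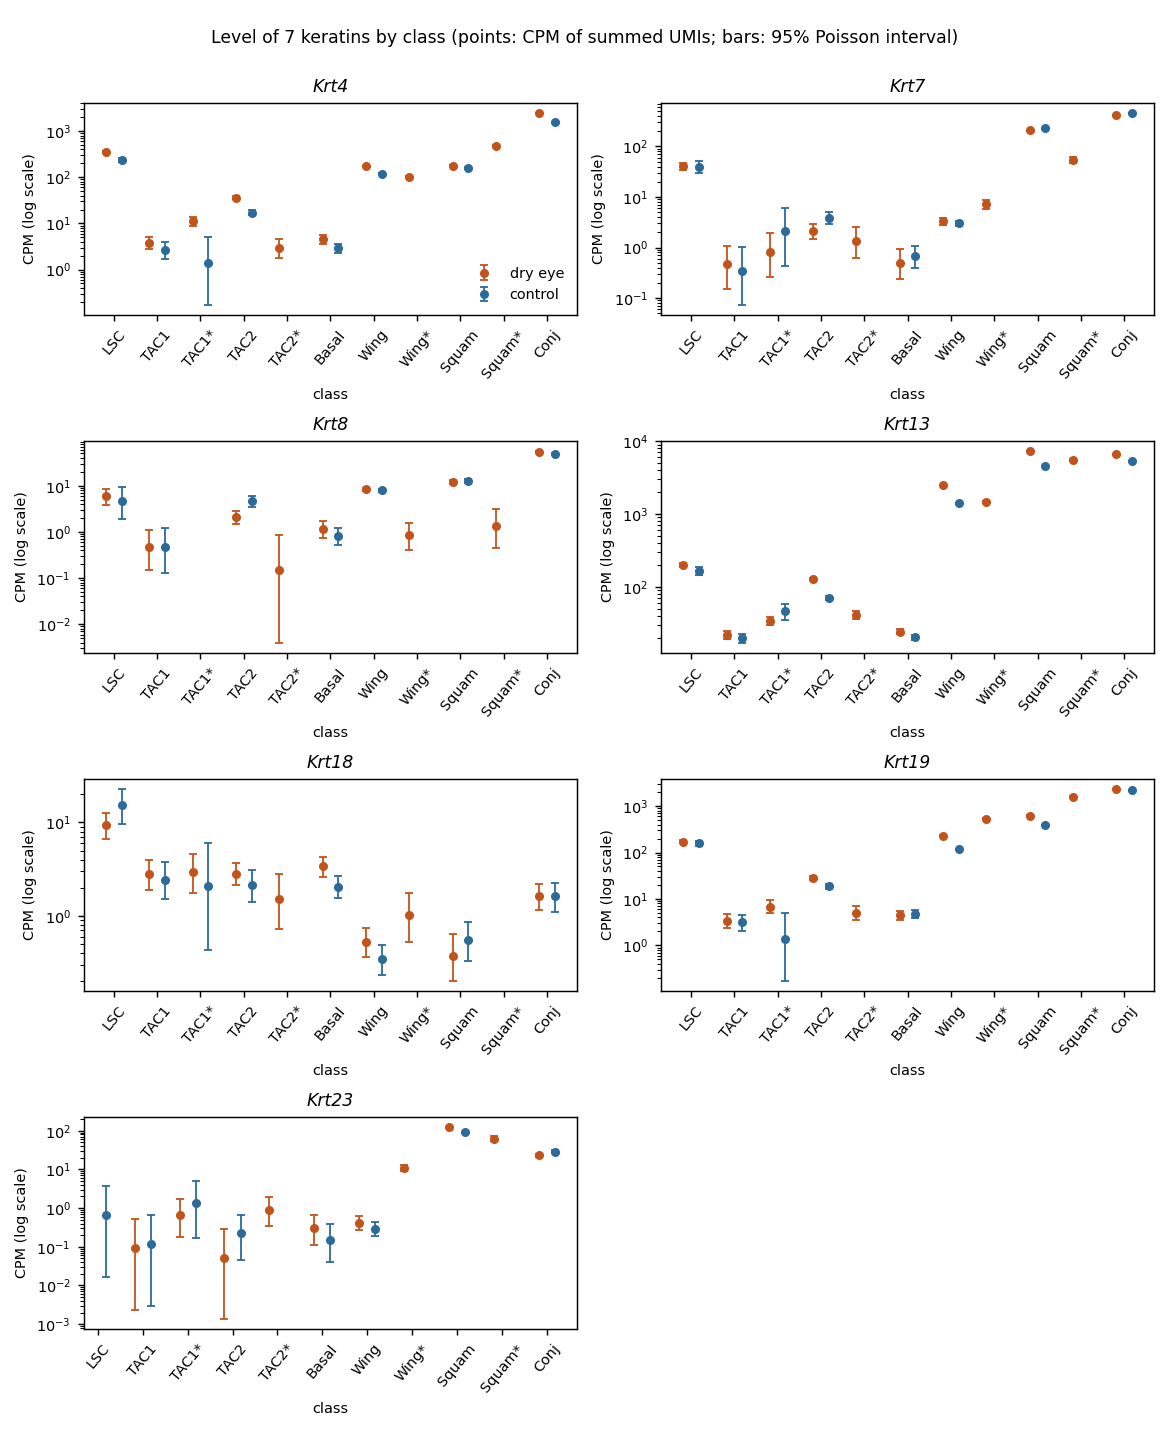
Level of each keratin by cell class, as CPM of the summed UMIs on a log axis, with 95% Poisson intervals for counting error. Dry eye is the left point and control the right point of each pair; classes with fewer than 100 cells in a library and values of 0 are not drawn. Krt4, Krt7, Krt8 and Krt19 are highest in Conj in both libraries, Krt23 in Squam and Krt18 in LSC, among the classes drawn.

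Among classes with at least 100 cells in the library, 4 of the 7 members, Krt4, Krt7, Krt8 and Krt19, were highest in Conj in both libraries. Of all genes, 8.62% of 6499 in dry eye and 8.73% of 6503 in control were highest there. Krt23 was highest in Squam, as were 11% of genes in dry eye and 16.5% in control, and Krt18 in LSC, as were 13.5% and 18.7%. Krt13 was highest in Squam in dry eye and in Conj in control. Some smaller classes stood higher. The 12 control Wing* cells had 754 CPM of Krt7, 336 CPM of Krt23 and 56.8 CPM of Krt8 on 11 UMIs. Krt18 had 12.4 CPM on 20 UMIs in the 85 dry eye LSC* cells and 32.1 CPM on 2 UMIs in the 6 control LSC* cells, and 28.2 CPM on 1 UMI in the 20 control Immune cells.

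The stratified mucosal pair, Krt13 and Krt4, differed in how far each extended beyond Conj. In Conj, Wing and Squam, cells with Krt4 mostly held Krt13 too. Of thinned cells with a Krt4 UMI, those that also held Krt13 made up 93.9% in dry eye and 91.3% in control in Conj, 90.9% and 88.2% in Wing, and 98.9% and 97.8% in Squam. These shares lay between 1.009 and 1.74 times those that independent detection would give. In LSC cells the shares were lower, at 37.7% in dry eye and 48.8% in control, and in TAC2 38.7% and 46.4%. Relative to independent detection they were higher, at 2.02 and 2.51 times in LSC and 3.25 and 5.57 times in TAC2. In Conj that value was 1.009 and 1.03, so the high shares there were close to those of independent detection. Of Basal cells with Krt4, 5 of 35 in dry eye (14.3%) and 2 of 35 in control (5.71%) held Krt13. Krt13, the type I partner, was low in LSC, TAC and Basal cells and high from Wing cells outward. In the dry eye library its level was 198 CPM in LSC, 24.2 CPM in Basal, 2489 CPM in Wing, 7364 CPM in Squam and 6712 CPM in Conj cells. In control it was 165 CPM in LSC, 20.2 CPM in Basal, 1395 CPM in Wing, 4600 CPM in Squam and 5351 CPM in Conj cells. Squam and Conj, the upper pair of classes, changed places between the libraries: Squam stood 1.10-fold above Conj in dry eye (1.09 to 1.10), and Conj 1.16-fold above Squam in control (1.15 to 1.17). Among the unstarred classes with enough cells, Wing, LSC and TAC2 followed in that order in both libraries.

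Within the outer classes Krt13 was higher in dry eye. Its ratio of dry eye over control was 1.78 (1.77 to 1.80) in Wing cells, 1.60 (1.59 to 1.61) in Squam cells and 1.25 (1.25 to 1.26) in Conj cells. The share of genes called higher by 1.5-fold was 2.25% in Wing, 3.17% in Squam and 0.707% in Conj. In the scaling within a class, the median gene had a ratio of 0.908 in Wing and 0.873 in Squam, or log2 -0.139 and -0.197. Relative to that median gene every ratio was 1.10 times larger in Wing and 1.15 times larger in Squam. On that scale Krt13 had a ratio of 1.96 in Wing and 1.83 in Squam. The genes past the class filter had a median log2 ratio of -0.108 in Wing and -0.118 in Squam and would give lower values. Later values relative to the median gene of a class use the larger shift. Krt12 differed from Krt13 in Wing cells, with 31536 CPM in dry eye and 30950 CPM in control, a ratio of 1.02. In Squam cells Krt12 was higher too, at 17322 CPM in dry eye and 12305 CPM in control, a ratio of 1.41.

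The difference in Krt13 ran through the whole distribution of Squam cells. After each cell had been thinned at random to 3000 UMIs, the median Squam cell held 20 Krt13 UMIs in dry eye and 11 in control, and the first quartile was 11 and 4 UMIs. Cells with at least 10 Krt13 UMIs made up 78.8% of dry eye Squam cells (77.3 to 80.3) and 55.2% of control Squam cells (53.4 to 57.0). In Wing cells the median was 2 UMIs in dry eye and 1 in control and the third quartile 11 and 5 UMIs. Cells with at least 10 UMIs made up 27.0% of dry eye Wing cells (25.5 to 28.5) and 14.2% of control Wing cells (13.3 to 15.2). Conj cells differed less, with a median of 18 UMIs in dry eye and 15 in control. A Krt13 UMI was seen in 65.4% of thinned dry eye Wing cells and 50.5% of control Wing cells, and in 97.2% and 91.3% of Squam cells. In Basal cells it was seen in 7.14% in dry eye and 5.44% in control. TAC1 cells, with the lowest Krt13 level of the classes with at least 100 cells, gave 5.30% in dry eye and 4.53% in control. Before thinning the Wing shares were 76.9% in dry eye and 64.7% in control. The median depths before thinning were 11815 UMIs in dry eye and 10706 in control for Wing, and 6126 and 5695 UMIs for Basal.

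**Figure D2:**
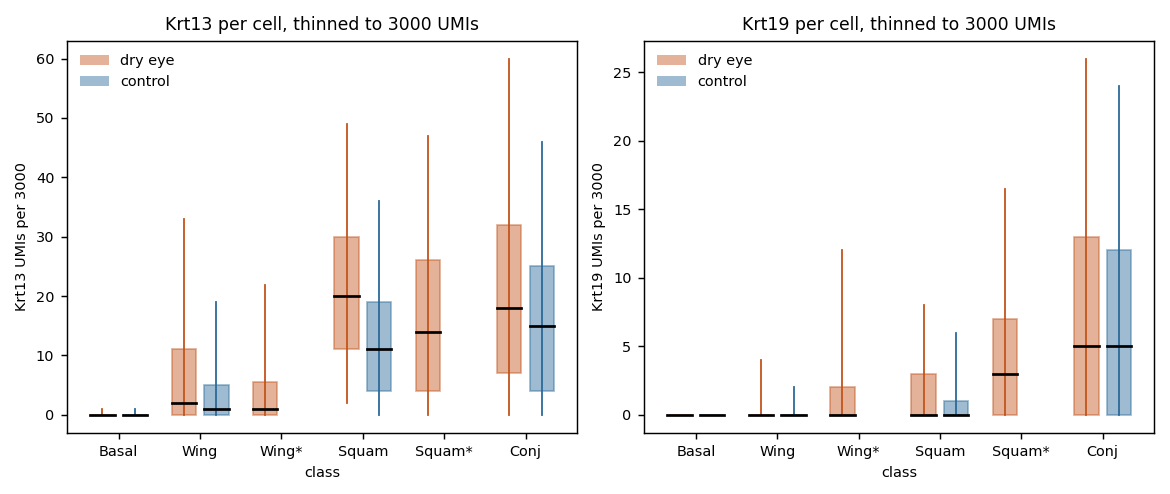
Krt13 (left) and Krt19 (right) UMIs per cell after thinning to 3000 UMIs, by class, dry eye left of control. Boxes run from the first to the third quartile, black lines mark the median and vertical lines run from the 5th to the 95th percentile; Wing* and Squam* are drawn for dry eye only. The Krt13 median in Squam is 20 in dry eye and 11 in control.

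Of the inner classes, LSC, TAC1 and TAC1* had a difference in Krt13 within the bound set by free RNA. The ratio was 1.20 in Basal, 1.20 in LSC, 1.12 in TAC1 and 0.740 in TAC1* cells. With LSC* joined, the LSC ratio was 1.81. That bound assumes that the class with the fewest UMIs per cell holds free RNA only. For Krt13 this class was Basal, with 0.168 UMIs per cell in dry eye and 0.129 in control. The bound therefore could not decide about Basal itself. With the bound subtracted, TAC1 turned to 0.912 and TAC1* to 0.598, and without the 10 cells richest in Krt13 TAC1* turned to 2.87. TAC2 was the exception, past the bound. It had 128 CPM in dry eye and 69.5 CPM in control, a ratio of 1.84 (1.70 to 1.99), where 1.41% of genes were called higher. The 10 richest cells held 48.6% of these UMIs in dry eye and 53.2% in control, and without them the ratio was 2.01.

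The bases before the Krt13 start site are shown because Krt13 was the member measured in all 8 classes with at least 100 cells in each library. The 250 bases come from RefSeq on build GRCm38.p6, at chr11:100121567-100121816 on the minus strand, and run 5′ to 3′ toward the start. Capitals mark matches on either strand to CACCC, the core letters of boxes bound by Klf factors, and to the AP-1 letters, TGA and TCA with any 1 base between them. The 2 kinds of match did not overlap.
Krt13 promoter: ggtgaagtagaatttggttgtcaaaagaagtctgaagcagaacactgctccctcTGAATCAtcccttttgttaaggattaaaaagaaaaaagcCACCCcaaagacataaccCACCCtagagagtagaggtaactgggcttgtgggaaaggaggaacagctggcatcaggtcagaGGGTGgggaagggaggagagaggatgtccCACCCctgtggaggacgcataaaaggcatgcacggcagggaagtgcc
It held 4 matches to CACCC, whose first bases lay 157, 139, 76 and 47 bases before the start, and 1 match to the AP-1 letters 196 bases before it. Of 32851 RefSeq windows of the same length, 52.0% held at least 1 CACCC match, 2.14% held at least 4 and 6.75% held the AP-1 letters. TATAAA, at 12.4% of windows, and the Grainyhead-type letters AACNNGTT, at 3.64%, had no match in this one. The promoter table held 5 of the 7 members. CACCC matched 2 times in the Krt8 window, 1 time each in those of Krt7 and Krt18, and not in that of Krt23, and the AP-1 letters matched in none of these 4. A match is a run of letters and not a site shown to be bound.

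Krt4, the type II partner of Krt13, was concentrated in Conj cells, which held 74.0% of its UMIs in dry eye and 66.2% in control. It had 2468 CPM in dry eye Conj cells and 1580 CPM in control Conj cells, a ratio of 1.56 (1.54 to 1.58). The next class was Squam* in dry eye, at 479 CPM, and LSC in control, at 234 CPM, so Conj stood 5.15-fold above the next in dry eye and 6.77-fold in control. Without the 10 cells of each class richest in Krt4 the next class was LSC in both libraries, and the folds were 10.1 in dry eye and 9.22 in control. LSC cells had 360 CPM in dry eye and 234 CPM in control, a ratio of 1.54 (1.37 to 1.74), in a class where 2.73% of genes were called higher. Without the 10 LSC cells richest in Krt4 this ratio was 1.41, and with LSC* joined it was 1.11. Wing cells had 175 CPM in dry eye and 120 CPM in control, a ratio of 1.45 that became 1.60 relative to the median gene of the class. Squam cells had 177 CPM in dry eye and 162 CPM in control, a ratio of 1.09 (1.05 to 1.13), the least difference of the 5 classes compared. In TAC2 cells the ratio was 2.09 (1.80 to 2.44), on 681 UMIs in dry eye and 226 in control, of which 10 cells held 50.5% and 72.1%. It was 3.71 without these cells and 2.92 with the free RNA bound subtracted.

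The shares of Conj cells with a Krt4 UMI had overlapping intervals, while the amount per cell was higher in dry eye. After thinning, 71.2% of dry eye Conj cells (69.0 to 73.3) and 71.9% of control Conj cells (69.5 to 74.1) held one. The median was 4 UMIs in dry eye and 3 in control, and the 95th percentile 31 and 18 UMIs. Cells with at least 10 made up 30.6% in dry eye (28.4 to 32.7) and 19.6% in control (17.7 to 21.7). In Basal cells the share with a UMI was 1.33% in dry eye and 0.939% in control. The ratio of Krt4 to Krt13 UMIs also set the classes apart, at 1.82 in dry eye LSC cells and 1.42 in control LSC cells, 0.368 and 0.295 in Conj, 0.0702 and 0.0861 in Wing, and 0.0241 and 0.0352 in Squam.

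**Figure D3:**
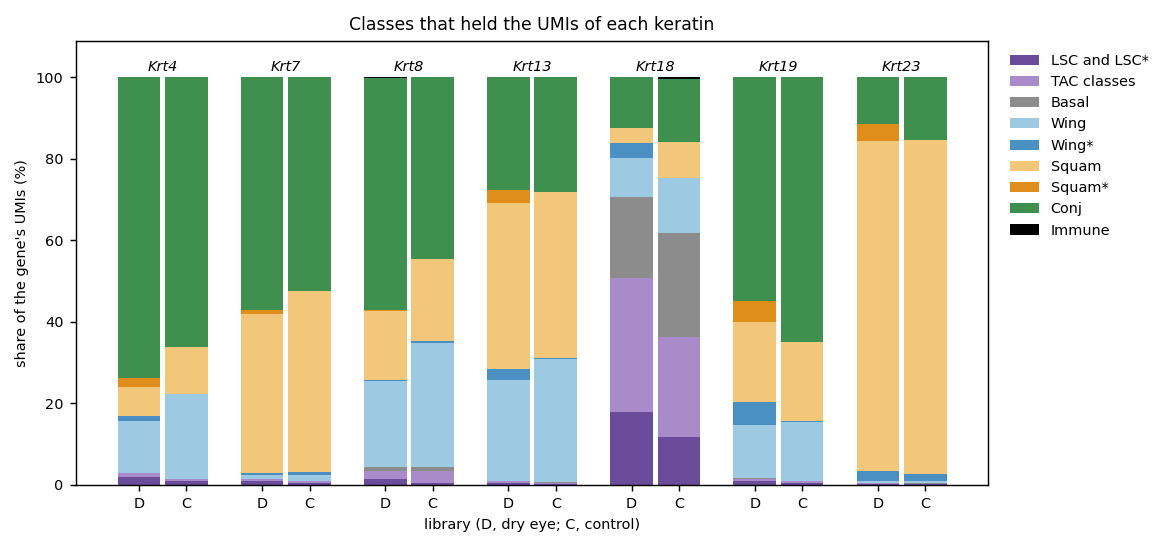
Share of each keratin's UMIs (percent) held by each class, with the dry eye library (D) left of control (C). Conj holds most Krt4, Krt7 and Krt19 UMIs in both libraries and Squam most Krt23 UMIs, while no class holds most of the Krt18 UMIs, of which Basal has 19.8% in dry eye and 25.6% in control.

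The simple pair, Krt8 and Krt18, had their highest levels in different classes. Krt8 was highest in Conj cells, with 54.3 CPM in dry eye and 48.1 CPM in control, and stood 4.57-fold and 3.73-fold above Squam. Its ratio of dry eye over control in Conj was 1.13 (1.04 to 1.22) and lay within the free RNA bound. Over all cells the ratio of 1.03 became 0.813 when Conj cells were left out. Conj made up 11.2% of dry eye cells and 8.96% of control cells. Krt18, its usual partner, was highest in LSC cells, with 9.37 CPM on 40 UMIs in dry eye and 15.3 CPM on 23 UMIs in control. Conj held 12.4% of Krt18 UMIs in dry eye and 15.3% in control, and LSC 11.8% and 10.7%. Only 3.48% of thinned dry eye LSC cells (2.04 to 5.52) and 5.41% of control LSC cells (2.62 to 9.72) held a Krt18 UMI. In the 217 Squam* cells of dry eye Krt18 had 0 UMIs, where 3 UMIs would make 0.824 CPM. Krt18 passed the level needed for comparison in no class. Krt8 and Krt18 are also known from Merkel cells, of whose 8 listed markers 3 were counted. Their sum was 12.6 CPM in dry eye Conj cells and 15.7 CPM in control Conj cells, and nearly all of the sum over all cells was Piezo2, with Krt20 at 160 UMIs in dry eye and 21 in control. Their part in the keratin values was not tested.

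The ratio of Krt8 to Krt18 UMIs therefore differed by class in both libraries. It was 33.5 (24.6 to 46.6) in dry eye Conj cells and 29.7 (21.0 to 43.4) in control Conj cells. In Squam it was 31.8 in dry eye and 23.5 in control, and in Wing 15.8 and 23.2. In Basal cells it was 0.343 (0.204 to 0.558) in dry eye and 0.400 (0.232 to 0.667) in control, and in LSC cells 0.625 (0.363 to 1.06) in dry eye and 0.304 (0.1103 to 0.733) in control. The ratio was thus far higher in Wing, Squam and Conj cells than in Basal and LSC cells of both libraries. Of thinned Conj cells with a Krt8 UMI, 98.5% in dry eye and 94.3% in control also held Krt19, and 1.46% and 0.709% held Krt18. Among all thinned Conj cells 73.7% in dry eye and 74.9% in control held Krt19, and 0.336% and 0.593% held Krt18. Krt13, also type I, was seen in 93.0% of them in dry eye and 88.6% in control. Its overlap with Krt8 was not counted.

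Krt19, a type I keratin of ducts and of the conjunctiva that lacks most of the tail found in other keratins, was higher in dry eye in Wing and Squam cells and nearly level in Conj cells. In Wing it had 230 CPM in dry eye and 119 CPM in control, a ratio of 1.93 (1.88 to 1.98). In Squam it had 622 CPM in dry eye and 393 CPM in control, a ratio of 1.58 (1.55 to 1.62). In Conj, where it was highest, it had 2341 CPM in dry eye and 2212 CPM in control, a ratio of 1.06 (1.05 to 1.07). The ratio over all cells was 1.93 without Conj cells, which held 54.9% of Krt19 UMIs in dry eye and 64.9% in control.

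The share of cells with a Krt19 UMI followed the same order. It was 22.6% of thinned Wing cells in dry eye (21.2 to 24.1) and 12.6% in control (11.7 to 13.5), and 45.8% of Squam cells in dry eye (43.9 to 47.6) and 31.8% in control (30.2 to 33.5). Basal cells gave 1.18% in dry eye and 1.42% in control, so the Wing and Squam shares stood well above those of Basal cells. In TAC2 cells Krt19 had a ratio of 1.54 (1.32 to 1.80), and 10 cells held 71.5% of its UMIs in dry eye and 84.1% in control. Without these cells the ratio was 2.76, with the free RNA bound subtracted 2.01, and with TAC2* joined 1.22. In LSC cells it had 170 CPM in dry eye and 157 CPM in control, a ratio of 1.08, which was 0.977 with LSC* joined and 1.82 without the 10 richest cells.

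Krt7, a type II keratin of glands and ducts, was the member whose ratio over all cells lay closest to 1. It stood at 414 CPM in dry eye Conj cells and 454 CPM in control Conj cells, a ratio of 0.911 (0.886 to 0.937). In Squam it had 211 CPM in dry eye and 227 CPM in control, a ratio of 0.928 (0.898 to 0.958), which was 1.06 relative to the median gene of that class. LSC cells had 40.5 CPM in dry eye and 39.3 CPM in control, a ratio of 1.03 (0.764 to 1.41) that was 0.564 with LSC* joined. Wing cells, between these classes, had 3.28 CPM in dry eye and 3.00 CPM in control, below the level needed for comparison. Over all cells the ratio of 0.982 was 1.03 with scaling by the median of gene ratios, 1.13 without the starred classes and 0.838 at the control class shares.

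The shares of Squam cells with a Krt7 UMI had overlapping intervals in the libraries. They were 651 of 2854 thinned Squam cells in dry eye, 22.8% (21.3 to 24.4), and 699 of 2987 in control, 23.4% (21.9 to 24.96). In dry eye they held 26.5 Krt12 UMIs per 3000, against 58.1 in Squam cells without Krt7, and in control 16.2 against 42.8. Krt5 was likewise lower in them, at 5.92 against 13.5 UMIs in dry eye and 4.66 against 11.8 UMIs in control. Krt23 was higher, at 0.724 against 0.227 UMIs in dry eye and 0.688 against 0.175 UMIs in control, while Krt13 stood at 0.930 and 0.962 times its level in the other Squam cells. Krt15, a basal and limbal keratin, was at 0.864 times in dry eye and 0.395 times in control. These are differences between cells of 1 library, and cells are not replicates.

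**Figure D4:**
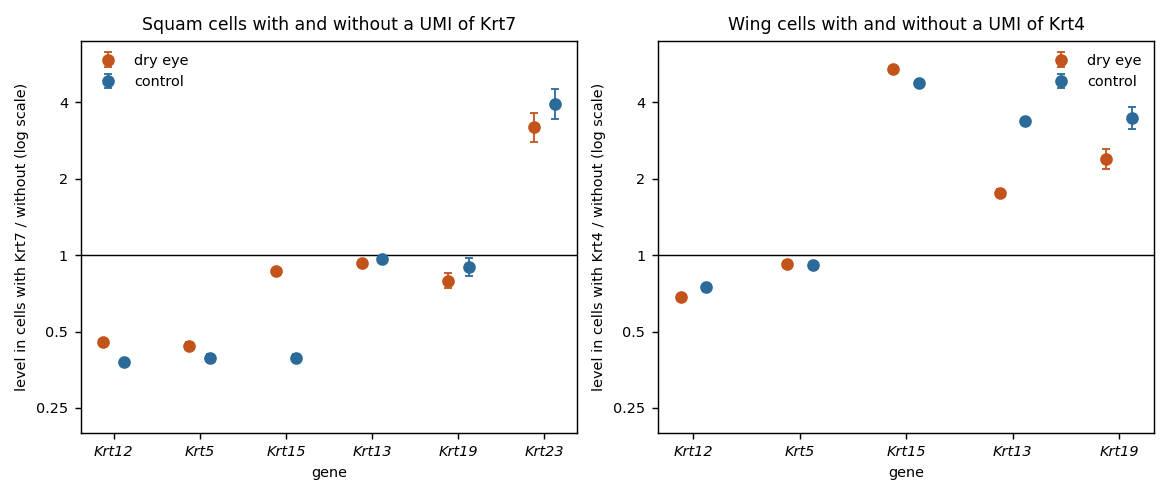
Left, ratio of each gene's level in Squam cells with a Krt7 UMI to that in Squam cells without one; right, the same for Wing cells split by Krt4, both after thinning to 3000 UMIs and on a log axis, dry eye left of control. Bars are 95% counting intervals. Krt12 lies below 1 in both splits and both libraries, Krt23 above 1 in the Krt7 split and Krt15 above 1 in the Krt4 split.

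Krt23, a type I keratin, was the member most concentrated in 1 layer. Squam cells held 80.9% of its UMIs in dry eye and 82.0% in control. Its level in Squam was 123 CPM in dry eye and 90.9 CPM in control, a ratio of 1.35 (1.29 to 1.42). It was 1.55 relative to the median gene of the class, and would be lower with the median of the genes past the class filter. In Conj it was 23.2 CPM in dry eye and 28.9 CPM in control, a ratio of 0.803 (0.716 to 0.902). The directions in these 2 classes were thus opposite, and the difference between them was not tested. A Krt23 UMI was seen in 15.5% of thinned Squam cells in dry eye (14.1 to 16.8) and 12.6% in control (11.5 to 13.9), against 0.0380% and 0.0805% of Basal cells. Of Squam cells with Krt23, 44.9% in dry eye and 56.8% in control also held Krt7, which was 1.97 and 2.43 times the share that independent detection would give.

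Conj and Wing cells could also be split by Krt4. Conj cells with a Krt4 UMI held 65.5 Krt15 UMIs per 3000 in dry eye, against 16.0 in those without, and 67.4 against 25.7 in control. They also held more Krt19, at 10.4 against 2.17 UMIs in dry eye and 9.51 against 2.85 UMIs in control, and less Krt12, at 9.97 against 21.4 UMIs in dry eye and 12.7 against 26.0 UMIs in control. Krt7 was at 0.911 and 0.791 times its level in Conj cells without Krt4. Conj cells with Krt23, which made up 5.71% of thinned Conj cells in dry eye and 5.20% in control, were unlike the Krt4 cells, with 3.92 against 16.7 Krt5 UMIs in dry eye and 4.33 against 17.5 in control, and with 4.99 against 1.25 Krt7 UMIs in dry eye and 5.81 against 1.32 in control. In Wing cells those with Krt4 held 39.4 against 7.31 Krt15 UMIs in dry eye and 37.2 against 7.80 in control, and Krt12 was lower in them at 70.9 against 104 UMIs in dry eye and 75.03 against 100.3 in control.

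**Figure D5:**
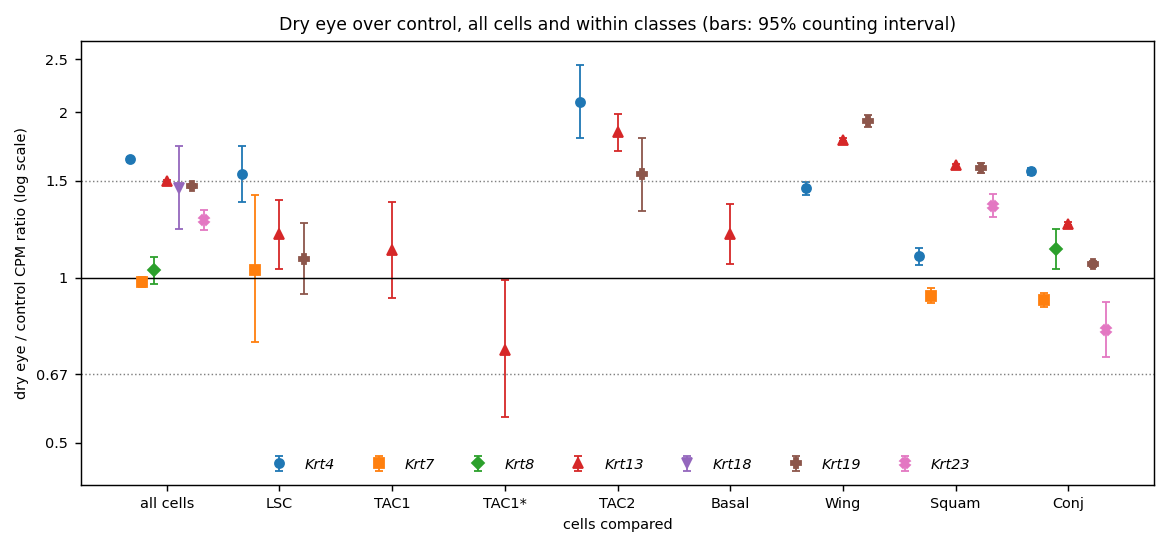
Ratio of dry eye over control CPM on a log axis, over all cells and within the 8 classes with at least 100 cells in each library, for members with at least 50 UMIs and 20 CPM in the class (all 7 members over all cells). Bars are 95% counting intervals, the solid line marks 1 and dotted lines the 1.5-fold threshold. Krt13 and Krt19 lie above the upper line in Wing, Squam and TAC2, and Krt4 in LSC, TAC2 and Conj.

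Over the 8 classes compared, 24 pairs of a member and a class had enough UMIs. Of these, 9 reached 1.5-fold higher in dry eye and 0 reached 1.5-fold lower. The classes differed in the background against which this is read. Of all genes measured in the class, the share 1.5-fold higher was 2.73% in LSC, 1.41% in TAC2, 2.25% in Wing, 3.17% in Squam and 0.707% in Conj. The share 1.5-fold lower was 7.07% in LSC, 1.04% in TAC2, 1.14% in Wing, 5.53% in Squam and 0.11% in Conj. In TAC1, TAC1* and Basal, where 0 of 1 member passed, the shares were 0.803% higher and 0.401% lower, 13.9% higher and 14.6% lower, and 0.602% higher and 0.473% lower. In Wing 2 of the 3 members measured and in Squam 2 of 5 passed 1.5-fold, with 3 of 3 in TAC2, 1 of 4 in LSC and 1 of 6 in Conj.

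The starred classes differed in these keratins. In dry eye, 446 Wing* cells had 533 CPM of Krt19 against 230 CPM in Wing cells, while Krt13 stood at 1478 CPM in Wing* and 2489 CPM in Wing. The 217 Squam* cells, which came from dry eye alone, had 1575 CPM of Krt19, 5590 CPM of Krt13, 479 CPM of Krt4, 62.7 CPM of Krt23 and 53.3 CPM of Krt7. Compared with dry eye Squam cells, Krt19 and Krt4 were thus higher in Squam*, and Krt13, Krt23 and Krt7 were lower. However, 10 Squam* cells held 59.3% of the Krt4, 64.5% of the Krt23 and 56.2% of the Krt7 UMIs of that class. In dry eye Squam the 10 richest cells held 19.3%, 10.8% and 10.9%. A Krt19 UMI was seen in 74.5% of thinned Squam* cells and 45.8% of Squam cells. In the 85 LSC* cells of dry eye Krt13 had 651 CPM, but 10 cells held 84.0% of it, and Krt4 had 2.47 CPM on 4 UMIs.

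The genes whose levels by class ran most like 6 of the members were found over the 23 sums of a class in a library with at least 20 cells, among 10990 genes. These sums share their library and the authors' classes, so the correlations of log2(CPM + 1) are a description. Krt4 ran with Krt15 (r = 0.96), Lrrc26 (0.91) and Akr1b7 (0.90), and Krt13 with Hopx (0.97), Clint1 (0.97) and Ablim1 (0.96). Krt19 ran with Upp1 (0.97), Oit1 (0.95) and Dgat2 (0.95), Krt7 with Krt75 (0.92), Ocm (0.90) and Atp13a4 (0.90), and Krt8 with Atp10b (0.85), Nostrin (0.82) and Ret (0.82). Krt23 ran with Cd274, which encodes PD-L1 (0.98), Alpl, a phosphatase (0.98), and Clic5 (0.96), of which Cd274 and Alpl were, like Krt23, among the leading genes of Squam. Among the members themselves the highest value was 0.89 for Krt13 with Krt19 and the next 0.88 for Krt4 with Krt19, while Krt8 and Krt18 had -0.32.

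The other keratins gave the frame for these values. Of 9 other type I keratins 7 were counted and 6 passed the filter over all cells, with 3 at least 1.5-fold higher in dry eye, 0 lower and a median log2 ratio of 1.23. Krt16, a keratin of stressed epidermis, and Krt14, the basal partner of Krt5, had ratios of 33.5 and 10.6, and Krt12 and Krt15 had 0.892 and 0.946. Of 12 other type II keratins 11 were counted and 5 passed, with 1 higher, Krt6a at 1.52, 0 lower and a median of 0.34. Krt76, at 128 UMIs in dry eye and 41 in control, had a ratio of 2.89, and Krt77 and Krt75 had 0.684 and 0.789. Each of these lay below the minimum of 20 CPM and did not pass. Of 11 genes that link keratins to desmosomes and hemidesmosomes 10 passed, and 0 were 1.5-fold higher or lower. Among the linkers with at least 50 UMIs, Pkp3 and Jup had the highest ratios, at 1.22 and 1.13, and Pkp2 and Evpl the lowest, at 0.752 and 0.856. Pkp2, at 1.39 CPM in dry eye and 1.84 CPM in control, did not pass the filter. Of 12 epithelial transcription factors 11 passed, with 1 higher and 0 lower: Sox9 had 1.55 and Ovol1 1.18, and Pax6, the eye field regulator, and Trp63, the basal regulator, had 0.835 and 0.881. The median of the linkers was 0.04 and that of the factors -0.05, beside -0.05 over all genes that passed.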

How the data were processed

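The authors deposited UMI counts of every gene in every cell, without normalization, and 0 values were not whole. A second deposited table gave the library and class of each cell and, as a score, 2 map coordinates by the authors that were not used. Per the labels' protocols, epithelium was freed with an enzyme, dissociated with trypsin and made into 10x Chromium 3' v3.1 libraries. The submitters' processing notes name Cell Ranger 6.0.1, Seurat 4 and mm10, and their roles, the cell filters and the classing are not given in the sources used here.

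Counts were summed per library or class and divided by the total to give CPM, with exact Poisson intervals for levels, Clopper-Pearson intervals for shares and for the split of the 2 counts behind a ratio. Filters were 100 UMIs and 20 CPM over all cells, and 50 UMIs and 20 CPM within a class. A ratio of at least 1.5 or at most 0.667 was called. Since cells of 1 pool are no replicates, intervals and the floor of 3 counts cover counting error only. For shares of cells each cell was thinned to 3000 UMIs with a fixed seed, leaving out 784 dry eye and 1094 control cells. As a bound on free RNA, the class with the fewest UMIs of a gene per cell gave an upper 95% limit that was taken from all classes. No doublet caller was run, and leaving out the 5% of cells with the most UMIs was an alternative. Calculations were done in Python 3.11.15 with numpy 2.4.6, scipy 1.17.1 and pandas 2.3.3, and the interval calculation was tested on simulated data. The members are named whatever their values; other genes are the 3 most correlated per member and the 2 highest and 2 lowest of each list with at least 50 UMIs. The members and lists were chosen with earlier results of these data known. Gene positions are from the GENCODE annotation of GRCm38, 1-based. The genes most like Krt18 by class are not reported here.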

Additional observations from a re-analysis of the deposited data

Results flagged for a closer look

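Krt23 differed in opposite directions in 2 classes. In Squam cells its ratio of dry eye over control was 1.35 (1.29 to 1.42), on 4276 UMIs in 708 dry eye cells and 3146 UMIs in 549 control cells. In Conj cells it was 0.803 (0.716 to 0.902), on 601 UMIs in 182 dry eye cells and 589 UMIs in 142 control cells, and 10 cells held 19.1% of these UMIs in dry eye and 25.3% in control. The difference between the 2 ratios was not tested, since each rests on 1 library per group.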

How the results depend on the processing

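No paired analysis was possible because each group is 1 library, although both pools came from the same mice. The count of members at least 1.5-fold higher over all cells, 1 as reported, was 4 with scaling by the median of gene ratios, 3 without the starred classes, without the 5% of cells with the most UMIs, as a mean over cells or without Conj, 2 without the 10 cells richest in the gene, and 2 without the cells whose barcode sequence was in both libraries, an alternative chosen after seeing the data. Krt13, Krt19 and Krt18 lay between 1.46 and 1.498 as reported. Krt18 was counted as a member although it was below the filter used for all genes. Without Conj, Krt4 was at 1.29 and no longer called, while Krt19 was at 1.93, Krt13 at 1.54 and Krt18 at 1.54. No member was 1.5-fold lower under any of the 9 alternatives. The median log2 ratio, 0.54, was 0.27 at the control class shares. Of all genes, 134 were called higher and 67 lower; the control class shares gave 60 and 32, no filter on low values gave 1757 and 1454, 34 were lower without the starred classes, and scaling by the median of gene ratios gave 172 and 48. Subtracting the free RNA bound brought 1 pair of a member and a class, Krt13 in TAC1*, to 1.5-fold lower, where 0 had been. The causes of these shifts were not tested. The class with the highest level of each member did not change as a mean over cells or without the 10 richest cells. Depth limits Krt18, with 339 UMIs in dry eye and 215 in control. Among the classes with at least 100 cells in each library, Krt8 outside Conj fell under the minimum of 20 CPM, although Wing had 521 UMIs in dry eye and 672 in control.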

Other observations

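The few control cells named Wing* and LSC* had a higher level of Krt7 than their dry eye namesakes. The 12 control Wing* cells had 754 CPM of Krt7 on 146 UMIs in 9 cells, 336 CPM of Krt23 and 3300 CPM of Krt12, while the 446 dry eye Wing* cells had 7.12 CPM of Krt7, 11.02 CPM of Krt23 and 16694 CPM of Krt12. The 6 control LSC* cells had 385 CPM of Krt7 on 24 UMIs in 4 cells, against 1.85 CPM on 3 UMIs in the 85 dry eye LSC* cells. In the LSC class, dry eye cells with a Krt4 UMI held 1.10 Krt13 and 0.795 Krt19 UMIs per 3000, against 0.1696 and 0.0643 in those without, and control cells with one held 1.56 and 1.67, against 0.176 and 0.141. Cells of 1 library are not replicates, and none of these values was tested.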
